A study of Mus musculus with 6 samples.

Results

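The EGR and NR4A genes, with the NAB corepressors, Srf and Ier2, are a set of 10 early-response genes, taken by symbol from the 22105 features with a gene identifier in the deposited expression table. All 10 symbols were found. The data are mRNA sequencing of 6 libraries from 4T1, an established mouse mammary carcinoma line. In 3 libraries the cells had been given CM-PEG-PLGA@DOX/R848 nanoparticles at the equivalent of 2 µg/mL doxorubicin, and in 3 they had been given phosphate-buffered saline (PBS), both for 24 h. Doxorubicin (DOX) is an anthracycline poison of topoisomerase II, and resiquimod (R848) activates the endosomal receptor TLR7. Empty particles and the free drugs were not analysed here, so the parts played by carrier, doxorubicin and R848 cannot be told apart. The labels do not name separate cultures for the 3 libraries of each group, and the spread behind every p-value may therefore be technical. In bulk RNA, a change in the share of cells that express a gene and a change in RNA per cell cannot be told apart.

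EGR1, EGR2 and EGR3 are zinc finger transcription factors that are switched on within minutes of growth factor, stress or calcium signals and bind GC-rich sites. NAB1 and NAB2 are corepressors that bind EGR proteins and hold down their activity, and NAB2 is itself induced by EGR factors, which makes a feedback loop. NR4A1 (NUR77), NR4A2 (NURR1) and NR4A3 (NOR1) are orphan nuclear receptors whose activity is set mainly by how much of them is made. SRF, the serum response factor, binds the CArG box in the promoters of many early genes together with ternary complex factors that respond to MAP kinases, and IER2 is a small nuclear protein made in the same early wave.

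The level unit is FPKM, a fragment count scaled for gene length and library size, so levels of different genes can be set side by side. Depth per library is unknown, because FPKM values carry no counts. Each library held 10596 to 10631 genes at 1 FPKM or more, and genes above 0 numbered 18319 to 18509 in the nanoparticle libraries and 13544 to 13808 in the PBS libraries. Of 9 epithelial markers of the line, 7 were tested, 5 were called higher, 1 (Cldn3, 17.0 FPKM with nanoparticles and 24.7 FPKM with PBS) lower and 1 (Cldn4) neither. Krt8, a keratin, averaged 343 FPKM with nanoparticles and 215 FPKM with PBS, whereas Epcam, an epithelial adhesion molecule, averaged 0.639 FPKM with nanoparticles and 0.551 FPKM with PBS, and Cldn7, a tight junction gene, was also under 1 FPKM throughout. Of 14 macrophage and myeloid markers, 10 were under 1 FPKM in every library and 4 were tested, of which 3 were called higher (Cd68, Mpeg1 and Csf1r, the last 2 with a direction fixed by the filter on low values) and 1 lower (Cd14). All 14 together summed to 44.6 to 50.2 FPKM in the nanoparticle and 23.0 to 26.8 FPKM in the PBS libraries, mostly from Cd68 (35.3 FPKM with nanoparticles and 12.2 FPKM with PBS) and Cd14 (7.13 FPKM with nanoparticles and 11.9 FPKM with PBS). Of the defining markers, Ptprc, the CD45 gene, averaged 0.527 FPKM and Adgre1, which encodes F4/80, 0.0633 FPKM with nanoparticles, and both were listed at 0 in all PBS libraries. All 9 lymphocyte markers were under 1 FPKM in every library and none was tested, with sums of 0.942 to 1.11 FPKM with nanoparticles and 0.104 to 0.229 FPKM with PBS. Of 8 fibroblast markers, the 2 tested, Pdgfra and Pdgfrb, were called lower, and they set the list's sum of 7.77 to 9.65 FPKM with nanoparticles and 32.7 to 33.0 FPKM with PBS. The other 6 were under 1 FPKM in every library, and each had the higher mean with nanoparticles, as Col1a1 with 0.415 FPKM against 0.265 FPKM with PBS. The part of these markers in the results was not tested.

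Promoter sequence was shown for 4 of the genes, because the elements through which early genes are described to respond lie close to their start sites. RefSeq promoter windows (GRCm38.p6, 250 bases before to 50 after a start site) were matched for 7 of the 10 genes: Egr2, Nab1, Nab2, Nr4a1, Nr4a2, Nr4a3 and Srf. Egr1, Egr3 and Ier2 had no window in the table. The stretches below end before the start site, read 5′ to 3′ on the strand of the gene and lie outside exons of GENCODE M21. Capitals mark CArG boxes in Egr2 and Srf, TGACG (the core of a cyclic AMP response element) in Egr2, Nr4a1 and Nr4a3, and GCGNGGGCG (the EGR consensus) in Nr4a1 and Srf, each on either strand.
Egr2, chr10:67537739-67537829, plus strand: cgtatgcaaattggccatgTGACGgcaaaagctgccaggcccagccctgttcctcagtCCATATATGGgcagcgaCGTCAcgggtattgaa
Srf, chr17:46556182-46556272, minus strand: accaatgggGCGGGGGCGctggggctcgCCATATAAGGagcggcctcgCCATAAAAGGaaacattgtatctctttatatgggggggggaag
Nr4a1, chr15:101266606-101266826, plus strand: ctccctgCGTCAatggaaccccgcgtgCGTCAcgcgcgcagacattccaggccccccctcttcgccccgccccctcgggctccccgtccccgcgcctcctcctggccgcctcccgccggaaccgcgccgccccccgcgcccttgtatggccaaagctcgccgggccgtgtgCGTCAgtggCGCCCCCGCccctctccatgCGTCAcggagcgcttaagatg
Nr4a3, chr4:48045065-48045150, plus strand: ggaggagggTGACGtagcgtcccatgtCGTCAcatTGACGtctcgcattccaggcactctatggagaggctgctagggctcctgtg

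Egr2 has several windows, and the one shown held 1 CArG box, whose first base was at position -72 from its start site, and the Srf stretch held 2, at positions -82 and -62. A CArG box was present in 1.63% of all 32851 RefSeq promoter windows. Since a gene can have several windows, the share of genes with a match in any window is given as well, over the 8574 tested genes outside the set that have one. It was 1.45% for the CArG box, which 2 of the 7 matched genes held, Egr2 and Srf. TGACG was present in 20.8% of windows and in 37.0% of those genes, and in 6 of the 7, Nab2 being the exception. The full TGACGTCA, which contains it, was in 1.79% of windows and 3.83% of genes and in none of the 7. GCGNGGGCG was present in 5.55% of windows and 12.7% of genes, and in Nab1, Nr4a1, Nr4a2 and Srf. AAAGGTCA, the site bound by NR4A monomers, was in 1.51% of windows and 1.09% of genes and in none of the 7. These are matches of letters and do not show that a factor was bound.

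The comparison of nanoparticle with PBS libraries asked how transcript levels differed after exposure to the loaded particles. Of the 10 genes, 9 passed the filter on low values (1 FPKM or above in at least 3 libraries) and were tested. With nanoparticles 8 rose (Egr1, Egr2, Egr3, Nab2, Nr4a1, Nr4a2, Srf and Ier2) and 1 was lower (Nab1), by limma on log2(FPKM + 1) with Benjamini-Hochberg adjusted p under 0.05. The direction of Nab1 turned with a trend on span and exonic length removed. Over all 10863 tested genes, 40.5% were called higher and 46% lower, or 86.4% in either direction, so a call alone sets a gene little apart here. The split depended on the filter: with none, 8445 of 20124 genes were called higher and 5227 lower, against 4395 higher and 4996 lower with it. The 2 groups did not overlap for any of the 10 genes, which held for 87.2% of tested genes. For 9 genes every nanoparticle library was above every PBS library, which held for 40.8% of tested genes. These 9 include Nr4a3, which was not tested, and Egr2, whose direction was fixed by the filter, as given below. A rise of at least 1 on the log2 scale was seen in 7 of the 9 tested genes and in 10.2% of all tested genes. With PBS, Egr2 stayed below 1 FPKM throughout, and its direction was therefore fixed by the filter; leaving it aside, 6 genes rose by that much. Nr4a3 was not tested at this filter.

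**Figure D1:**
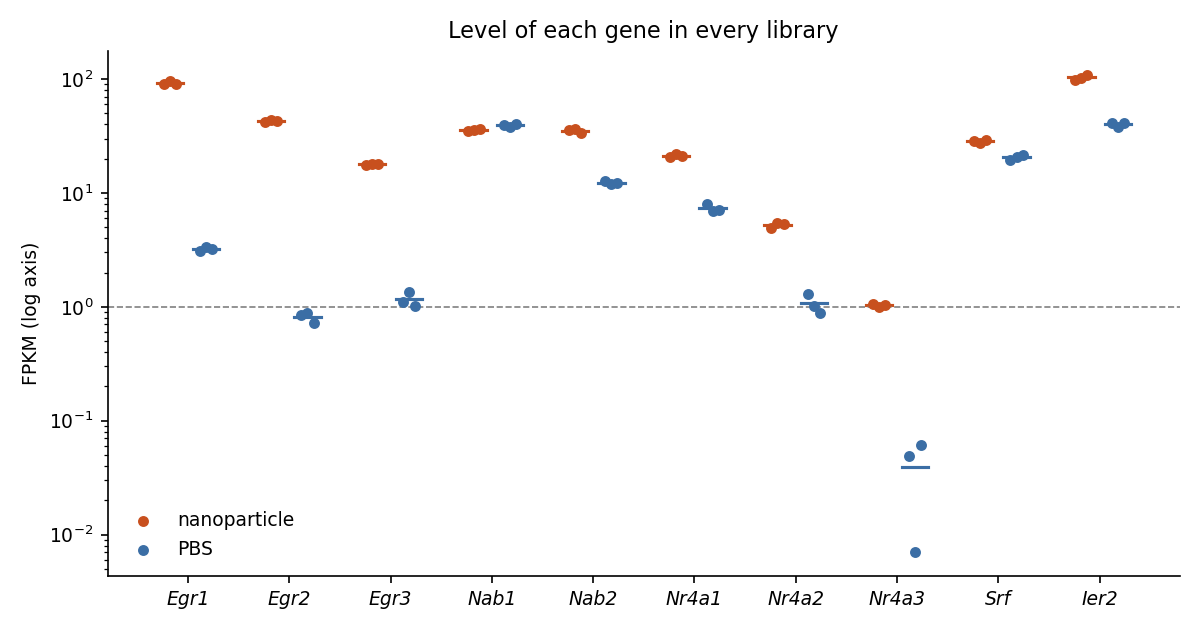
FPKM of the 10 genes on a log axis, in the 3 nanoparticle libraries (orange, left of each pair) and the 3 PBS libraries (blue, right), with short bars at the group means and a dashed line at the filter of 1 FPKM. The nanoparticle points lie above the PBS points for 9 genes and below them for Nab1, whose fold change turned to 0.08 with the span and length trend removed.

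Egr1, at chromosome 18, 34859823 to 34864984 on GRCm38, had 90.6, 96.9 and 90.3 FPKM in the nanoparticle libraries, against 3.10, 3.35 and 3.24 FPKM in the PBS libraries. Every nanoparticle library was far above every PBS library, and the ratio of the group means was 28.7. Its log2 fold change was 4.47 (standard error 0.043, adjusted p = 3.9e-12, limma), the 11th largest of the tested genes. EGR1 is the founding member of the family and the one most widely used as a marker of early signalling.

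Egr2, at chromosome 10, 67535475 to 67542188, had 42.3, 43.5 and 42.4 FPKM in the nanoparticle libraries, against 0.853, 0.882 and 0.726 FPKM in the PBS libraries. It was close to silent with PBS and the third most abundant of the 10 transcripts with nanoparticles, and the ratio of means was 52.1. The log2 fold change of Egr2 was 4.59 (standard error 0.051, adjusted p = 7.2e-12, limma). The added 1 FPKM shrinks the change of genes this low with PBS, and with a pseudocount of 0.1 it was 5.54. EGR2, also called KROX20, is best known for its part in hindbrain patterning and myelination.

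Egr3, at chromosome 14, 70077203 to 70082614, had 17.4, 18.1 and 17.8 FPKM in the nanoparticle libraries, against 1.11, 1.36 and 1.02 FPKM in the PBS libraries. The groups did not overlap, and the log2 fold change was 3.12 (standard error 0.066, adjusted p = 1.75e-10, limma), with a ratio of means of 15.3, and it was 3.83 with a pseudocount of 0.1. EGR3 is an EGR1-related factor known from muscle spindle development and lymphocytes. Egr4, the family's remaining gene, named after its values were seen, had 0, 0.0217 and 0.125 FPKM with nanoparticles and was listed at 0 in every PBS library.

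The make-up of the EGR transcripts also differed. Summed over Egr1, Egr2 and Egr3, the level was 153 ± 4.65 FPKM with nanoparticles and 5.21 ± 0.326 FPKM with PBS (mean ± SD, n = 3 each). Egr1 made up 60.5% ± 0.603 of that sum with nanoparticles and 62% ± 2.62 with PBS, and the libraries of the groups overlapped. Egr2 made up 27.9% ± 0.409 with nanoparticles and 15.7% ± 1.14 with PBS, and Egr3 made up 11.6% ± 0.212 with nanoparticles and 22.2% ± 1.92 with PBS, without overlap in either case. Egr2 thus stood above Egr3 in all 3 nanoparticle libraries and below it in all 3 PBS libraries. These shares were described and not tested.

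Nab2, at chromosome 10, 127660918 to 127668568, had 35.5, 36.1 and 33.7 FPKM in the nanoparticle libraries, against 12.7, 12 and 12.1 FPKM in the PBS libraries. Every nanoparticle library was higher, and the log2 fold change was 1.44 (standard error 0.041, adjusted p = 1.03e-09, limma), with a ratio of means of 2.86. Nab2 shares 40 bases at its 3′ end with Stat6 and 1668 bases of its span with Nemp1, both on the opposite strand. Gm16229, an antisense gene with no value used here, lies within Nab2 over 1646 bases, also on the opposite strand. Reads from the strands cannot be told apart because the use of strand in counting was not stated. Stat6, a cytokine-activated transcription factor, fell by 0.76 and Nemp1, a nuclear envelope gene, rose by 0.70 on the log2 scale (adjusted p = 1.16e-08 and 3.08e-07, limma), both named for their position.

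Nab1, at chromosome 1, 52457294 to 52500679, had 35.2, 36.0 and 36.7 FPKM in the nanoparticle libraries, against 39.7, 38.3 and 39.9 FPKM in the PBS libraries. The groups did not overlap, but they lay close together, with a ratio of means of 0.916. The log2 fold change was -0.12 (95% interval -0.20 to -0.05, adjusted p = 0.00526, limma), against a median of -0.06 over all tested genes. With median-of-ratios scaling it was -0.06 and not called (adjusted p = 0.0988, limma). With a trend on span and exonic length removed it was 0.08 and called as higher (adjusted p = 0.0406, limma). No direction therefore holds for Nab1 across these settings.

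Because NAB1 and NAB2 bind the same EGR partners, their transcripts were compared within each library, where library scaling cancels. A trend on span does not cancel there, and Nab1 spans 43.4 kb against 7.65 kb for Nab2. After the trend on span and exonic length was taken out, log2 fold changes were 1.12 for Nab2 and 0.08 for Nab1. Before this they were 1.44 for Nab2 and -0.12 for Nab1. The part of span in the ratios below was not tested. The ratio of Nab2 to Nab1 was 1.01, 1.003 and 0.916 in the nanoparticle libraries, against 0.321, 0.314 and 0.304 in the PBS libraries. The corepressor transcripts thus stood at nearly equal levels with nanoparticles, while Nab1 was the more abundant with PBS. The log2 ratio differed by 1.64 ± 0.051 (difference of means ± standard error, n = 3 each; two-sided exact permutation p = 0.1, the smallest that 3 against 3 allows). The summed EGR level divided by the summed NAB level was 2.13, 2.20 and 2.14 in the nanoparticle libraries, against 0.0967, 0.111 and 0.0958 in the PBS libraries. EGR transcripts exceeded NAB transcripts in every nanoparticle library and fell short of them in every PBS library. This log2 ratio differed by 4.42 ± 0.071 (exact permutation p = 0.1, again the smallest possible, and 0.1 for both ratios after adjustment over the 2). The summed NAB level itself was 71.1 ± 0.895 FPKM with nanoparticles and 51.6 ± 1.13 FPKM with PBS.

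**Figure D2:**
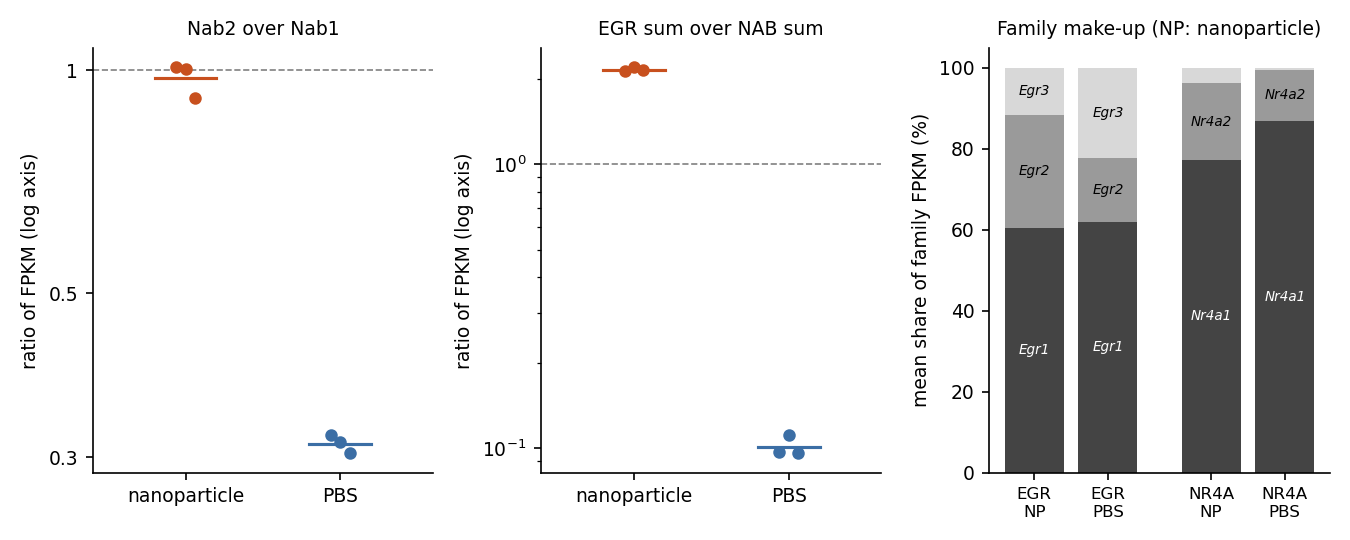
Left and middle, the ratio of Nab2 to Nab1 FPKM and of summed EGR to summed NAB FPKM in each library on log axes, with bars at the group means and a dashed line at 1; right, the mean share of each gene in the summed FPKM of its family. The nanoparticle libraries sit near 1 for Nab2 over Nab1 and above 2 for EGR over NAB, and the PBS libraries near 0.3 and 0.1.

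Nr4a1, at chromosome 15, 101254269 to 101274795, had 20.8, 21.9 and 21.1 FPKM in the nanoparticle libraries, against 8.06, 6.98 and 7.13 FPKM in the PBS libraries. All nanoparticle libraries were higher, and the log2 fold change was 1.41 (standard error 0.056, adjusted p = 7.97e-09, limma), with a ratio of means of 2.88. NR4A1 is known for its roles in apoptosis and in activated lymphocytes.

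Nr4a2, at chromosome 2, 57106830 to 57124003, had 4.89, 5.42 and 5.38 FPKM in the nanoparticle libraries, against 1.31, 1.02 and 0.889 FPKM in the PBS libraries. The groups did not overlap, and the log2 fold change was 1.59 (standard error 0.085, adjusted p = 6.72e-08, limma), with a ratio of means of 4.88. With a pseudocount of 0.1 the log2 fold change was 2.20. NR4A2 is needed for the development of dopamine neurons.

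Nr4a3, at chromosome 4, 48045153 to 48086447, had 1.06, 0.986 and 1.03 FPKM in the nanoparticle libraries, against 0.0492, 0.00706 and 0.0608 FPKM in the PBS libraries. It was near the floor with PBS and just at the filter with nanoparticles, where 2 of the 3 libraries reached 1 FPKM. With no filter on low values its log2(FPKM + 1) difference was 0.96 (standard error 0.054, adjusted p = 2.89e-06, limma), and 42% of the 20124 genes tested that way were called higher. More genes were above 0 in the nanoparticle libraries as a whole, as given above, and the part of this in the Nr4a3 result was not tested. Of 9532 genes under 0.1 FPKM in each PBS library, 22 (0.231%) averaged 1 FPKM or more with nanoparticles. Nr4a3 was among them by its own values, given above, so this share is a description and no test of Nr4a3. NR4A3 acts with NR4A1 as a tumour suppressor in mouse myeloid cells.

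In the NR4A family the order of levels was Nr4a1, Nr4a2, Nr4a3 in every library. Nr4a1 made up 77.3% ± 0.521 of the summed family level with nanoparticles and 87.0% ± 1.33 with PBS, and Nr4a2 made up 19.0% ± 0.644 with nanoparticles and 12.5% ± 1.45 with PBS. The sum was 27.5 ± 0.769 FPKM with nanoparticles and 8.5 ± 0.794 FPKM with PBS. Its members therefore shifted in share as well as in level, with Nr4a1 predominant in both groups.

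Srf, at chromosome 17, 46548329 to 46556175, had 28.3, 27.6 and 29.4 FPKM in the nanoparticle libraries, against 19.4, 20.7 and 21.3 FPKM in the PBS libraries. Every nanoparticle library was higher, by a small margin: the log2 fold change was 0.46 (standard error 0.044, adjusted p = 5.3e-06, limma) and the ratio of means 1.39. It was 0.14 with the span and length trend taken out (adjusted p = 0.0172), and it was not called against a 1.5-fold change. The whole of Srf lies within Gm26904, a long noncoding gene on the opposite strand with no value used here. Ier2, at chromosome 8, 84661331 to 84662852, had 98.4, 103 and 109 FPKM in the nanoparticle libraries, against 41.2, 37.9 and 40.8 FPKM in the PBS libraries. By mean level it came first of the 10 transcripts in both groups, though with PBS its range overlapped that of Nab1, and it rose by 1.35 on the log2 scale (standard error 0.045, adjusted p = 3.4e-09, limma).

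**Figure D3:**
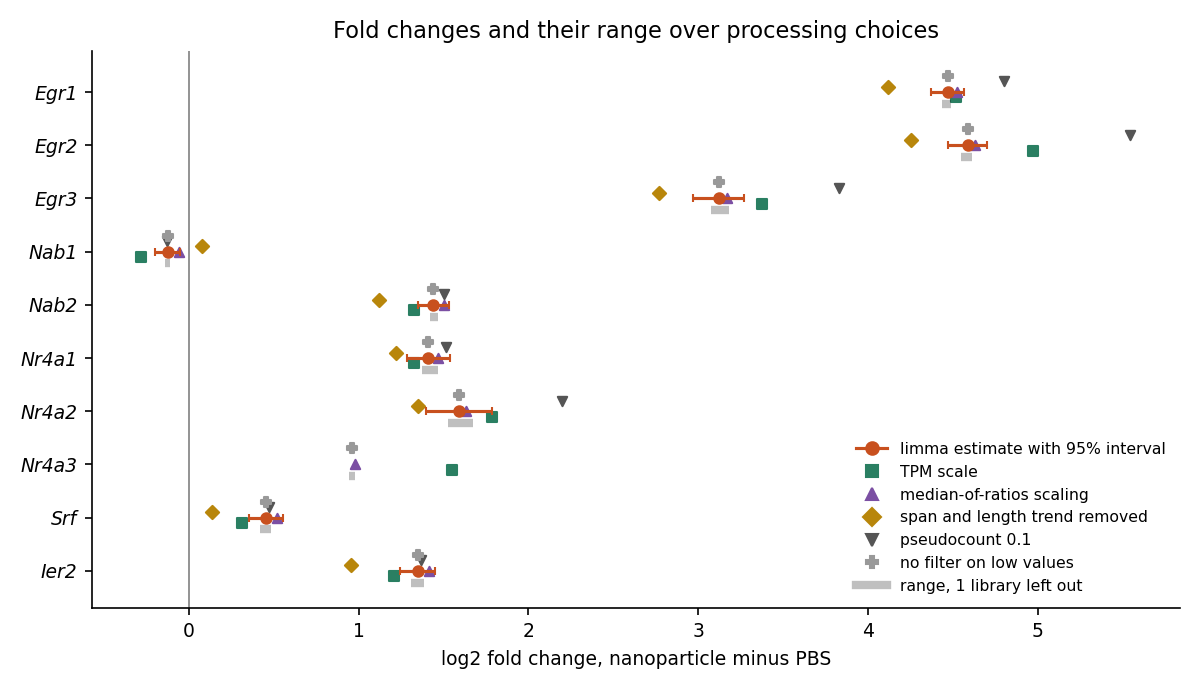
log2 fold changes (nanoparticle minus PBS) of the 10 genes, as limma estimates with 95% intervals (orange) and as values under other processing choices (symbols) and with 1 library left out (grey bars); Nr4a3 has no orange point because it was not tested at the main filter. Nab1 lies on both sides of 0, from -0.28 to 0.08, and the other 9 genes stay above 0 in every setting shown. Where the filter of 1 FPKM was applied to FPKM values, it fixed the direction of Egr2 and Nr4a3.

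Ordered by level, the nanoparticle libraries ran Ier2, Egr1, Egr2, Nab1, Nab2, Srf, Nr4a1, Egr3, Nr4a2, Nr4a3, and only Nab1 and Nab2 overlapped with each other as neighbours in that order. The PBS libraries ran Ier2, Nab1, Srf, Nab2, Nr4a1, Egr1, Egr3, Nr4a2, Egr2, Nr4a3, and the neighbours whose ranges overlapped were Ier2 with Nab1 and Egr3 with Nr4a2. Egr1 and Egr2 stood higher in the nanoparticle order than in the PBS order, whereas Egr3 stood 1 place lower.

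The genes' spread between replicates was small at the higher levels. The SD was 1.55% to 5.61% of the mean in nanoparticle libraries. With PBS it was 2.25% to 7.93% of the mean for the genes above 3 FPKM and 10.1% to 19.96% for Egr2, Egr3 and Nr4a2. For Nr4a3, near the floor with PBS, it was 72.5%.

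Most short genes were higher in these libraries, and 6 of the 10 genes span less than 10 kb (Egr1, Egr2, Egr3, Nab2, Srf and Ier2, from 1.52 kb to 7.85 kb). All 6 rose, with the direction of Egr2 fixed by the filter. Of the 2658 tested genes under 10 kb, 60.2% were called higher and 25.7% lower. Of the 4 longer genes, Nr4a2 (17.2 kb) and Nr4a1 (20.5 kb) rose, Nr4a3 (41.3 kb) was not tested, and Nab1 (43.4 kb) had the values given above. The median log2 fold change was 0.33 for tested genes of 5 to 10 kb, 0.23 for those of 10 to 20 kb and -0.05 for those of 20 to 50 kb. With the trend removed the log2 fold changes were 4.12 for Egr1, 4.25 for Egr2, 2.77 for Egr3, 1.12 for Nab2, 1.22 for Nr4a1, 1.35 for Nr4a2 and 0.96 for Ier2, each still called.

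**Figure D4:**
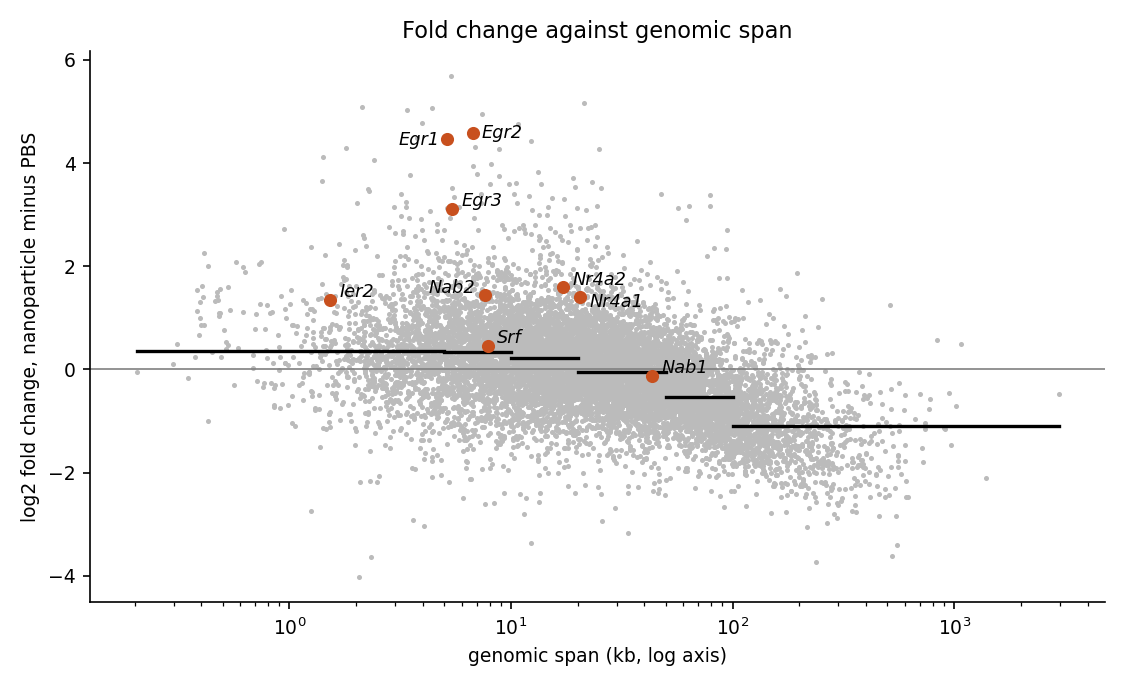
log2 fold change (nanoparticle minus PBS) against genomic span on a log axis for the tested genes with an annotated span (grey), with the median in each span class (black lines, from 0.36 under 5 kb to -1.10 above 100 kb) and the 9 tested genes of the set (orange). Egr1, Egr2 and Egr3 lie far above the median of their class, and Srf and Nab1 lie close to it.

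The genes around this set were described from lists of other early genes, SRF cofactors and targets, EGR1 targets, NAB-bound complexes and NR4A partners. Of 25 other immediate early genes, 24 were tested, 23 were called higher and 1 (Klf2) fell, with a median log2 fold change of 2.22, against -0.06 over all tested genes. Dusp1, a MAP kinase phosphatase, rose by 3.12, Fos, an AP-1 subunit, by 5.04 and Gadd45b, a stress-inducible gene, by 5.09 on the log2 scale. Among the 10 genes of the set, Egr1, Egr2 and Egr3 lay above this list's median, and Nab2, Nr4a1, Nr4a2, Ier2, Srf and Nab1 lay below it. Fosb and Arc, of the 23, were under 1 FPKM in all PBS libraries, which fixed their direction.

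Of 6 genes of SRF cofactors, 5 were tested, 2 rose and 3 fell, with a median of -1.04. Elk3, a ternary complex factor, fell by 1.47 (63.7 kb) and Mrtfa, an actin-sensing coactivator, fell by 1.04 (178 kb), while Elk4, another ternary complex factor, rose by 0.56 (25 kb). Mrtfb, named after its values were seen, fell by 1.06 (161 kb). The 3 that fell are longer than the 2 that rose, and the part of span in this was not tested.

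Of 23 cytoskeletal and contractile SRF target genes, 17 were tested, 7 rose, 9 fell and 1 (Fhl2) was not called, with a median of -0.33. Ccn1, a matricellular gene, rose by 2.64 and Cfl1, which encodes cofilin, by 1.11. Ccn2, the connective tissue growth factor gene, had 7.10 ± 0.446 FPKM with nanoparticles and 0.312 ± 0.0915 FPKM with PBS, and the filter fixed its direction. Among the 9 that fell were Flna, the filamin A gene, by 0.61 and Vcl, the vinculin gene, by 0.38 on the log2 scale, both named after their values were seen. Tpm2, named in the same way, also fell. It had 0.525 ± 0.222 FPKM with nanoparticles and 2.17 ± 0.438 FPKM with PBS. Every nanoparticle library was under 1 FPKM for Tpm2, and the filter fixed its direction. With no filter on low values 11 were called higher and 9 lower, with a median of 0.11. The genes that this added were under 1 FPKM in every PBS library. Against a 1.5-fold change 3 were called higher and 1 lower. In the settings with a filter the median was negative, from -0.35 to -0.19. Taking calls and medians together, no direction of the list as a whole held across settings.

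Of 16 genes described as EGR1 targets, 14 were tested, 6 rose, 5 fell and 3 were not called, with a median of 0.06. Pdgfb, a growth factor gene, had 19.2 FPKM on average with nanoparticles and 4.24 FPKM with PBS, and rose by 1.95 on the log2 scale. All tested genes split 40.5% higher to 46% lower, and this list split 6 to 5.

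The NuRD chromatin complex, which NAB2 recruits through CHD4, had 13 members, all tested: 6 rose and 7 fell, with a median of -0.14. Mbd3 rose by 0.66, Mta1 fell by 0.66 and Gatad2b fell by 0.77 on the log2 scale. The 9 CREB, CRTC and RXR genes encode upstream activators of the NR4A receptors or dimer partners of NR4A1 and NR4A2. Of these 9, 8 were tested, 3 rose, 4 fell and 1 (Atf1) was not called, with a median of -0.16. Rxra, the gene of an RXR dimer partner, fell by 1.81 (4.81 ± 0.213 FPKM with nanoparticles and 19.4 ± 0.401 FPKM with PBS), Crtc2, a CREB coactivator, rose by 0.54 and Crtc3 fell by 0.75.

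**Figure D5:**
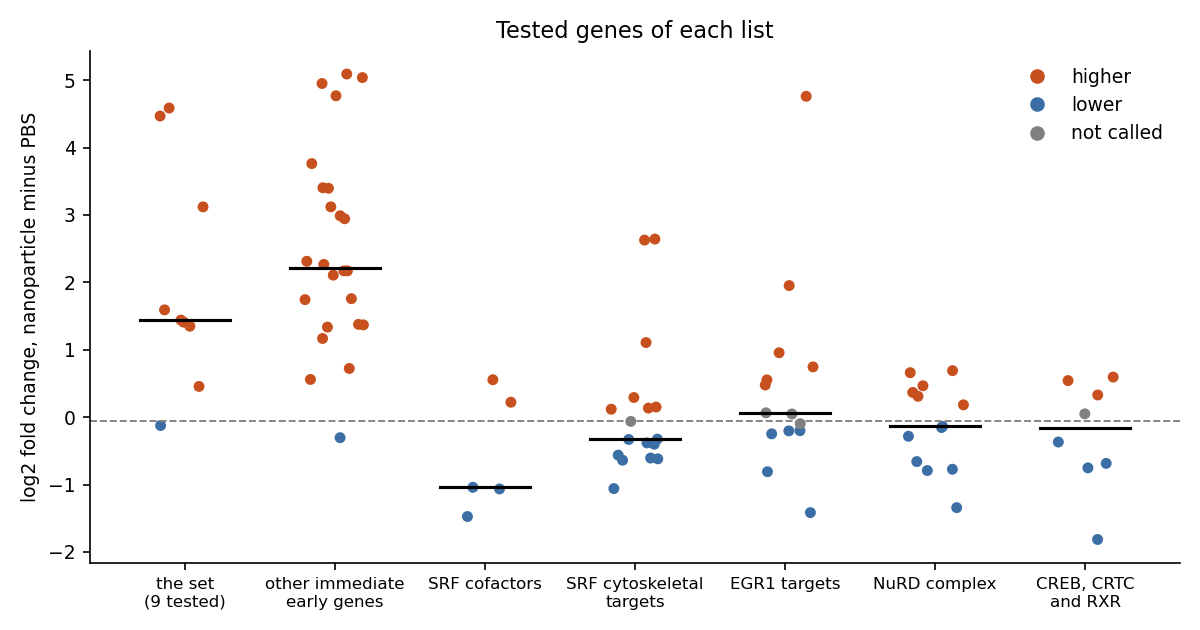
log2 fold changes (nanoparticle minus PBS) of the tested genes of the set and of each list, with points coloured by call (orange higher, blue lower, grey not called), black bars at the list medians and a dashed line at the median of all tested genes, -0.06. The median of the other immediate early genes (2.22) lies above the line and that of the SRF cofactors (-1.04) below it. Klf2 of the early genes lies below the line, and Elk4 and Elk1 of the cofactors lie above it. The direction of Egr2 in the set was fixed by the filter, and Nab1 turned higher with the span and length trend removed.

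Genes with a pattern like that of Egr1, Nab2 and Nr4a1 were looked up by the root mean square distance between log2(FPKM + 1) values over the 6 libraries, each gene centred on its own mean. With only 2 groups this mainly ranks genes by an equal fold change. Nearest to Egr1 were Irf7 (distance 0.055), Zbp1 (0.074) and Areg (0.096), which encodes the EGFR ligand amphiregulin. Areg had 149, 155 and 149 FPKM in the nanoparticle libraries, against 6.74, 7.02 and 6.63 FPKM in the PBS libraries. Nearest to Nab2 were Kif23 (0.02), Evi2a (0.032) and Fndc7 (0.033), and nearest to Nr4a1 were Ltv1 (0.035), Tma7 (0.042) and Cd274 (0.044), which encodes PD-L1.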

How the data were processed

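The authors deposited FPKM values per gene for 6 libraries. The header names no unit; FPKM was inferred because values were not whole and, multiplied by exonic length, gave nearly equal library totals. STAR and featureCounts, and the builds GRCm38 and mm10, are named per the submitters' processing notes, without versions; the program behind the FPKM values was not stated. Ratios of values under 0.2 FPKM between libraries of a group put at most 1.86% in any 1% bin, so no read unit was recovered and depth stays unknown, without counting intervals. The 701 features without a gene identifier (0.631% to 0.67% of summed FPKM) stayed out of the tests.

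Genes with at least 1 FPKM in as many libraries as the smaller group has were tested on log2(FPKM + 1) with limma 3.58.1 in R 4.3.3 (trend and robust settings, two-sided, no replicate block, Benjamini-Hochberg over all 10863 tested genes, called under 0.05), and the fit was tested on simulated data. Ratios used exact permutation tests (scipy 1.17.1). Positions, span, exonic length and 3′ UTRs came from GENCODE M21 (GRCm38). Genes named are the 10, the 3 lowest adjusted p of each list other than the marker lists, and the 3 nearest to Egr1, Nab2 and Nr4a1; all others, including marker genes and the exceptions to a count, were named after their values were seen, and 2 genes that this rule chose are not reported here. The genes, lists and tests were chosen with earlier results of these data known.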

Additional observations from a re-analysis of the deposited data

How the results depend on the processing

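Over the alternatives tried (pseudocount 0.1, no filter or a filter at 5 FPKM, TPM and median-of-ratios scaling, a replicate block, each library left out, span and length trend removed, a threshold of 0.01 and a test against a 1.5-fold change), Egr1, Egr2, Egr3, Nab2, Nr4a1, Nr4a2 and Ier2 kept their direction and call wherever tested. With the filter of 1 FPKM, Egr2 passed only by its nanoparticle values, which fixed its direction. With the filter at 5 FPKM this held for Egr1, Egr2 and Egr3. The log2 fold change of Nab1 reversed to 0.0797 with the span and length trend removed, and its call was lost with median-of-ratios scaling and, like that of Srf, against a 1.5-fold change. Nr4a3 was tested under 7 alternatives, in 6 of which it passed the filter only by its nanoparticle values, which fixed its direction; with no filter it was called higher. Against a 1.5-fold change 4194 genes were called, against 9391, and 3 SRF cytoskeletal targets were called higher, against 7; with no filter 11 were, and 8445 genes were called higher and 5227 lower; with TPM 3972 were higher and 5918 lower. With 1 library left out, 9253 to 9324 genes, 8 to 9 genes of the set and 6 to 7 SRF targets were called (the set's or list's called higher). TPM scaling moved the median log2 fold change of all tested genes to -0.19, against -0.06, and that of Nab1 to -0.28. The replicate block gave 9371 calls and 8 genes of the set higher, changed no call among the 10 genes, and left both ratios at p = 0.25 (exact permutation), the smallest that 3 pairs allow. Deviations of same-numbered libraries correlated at -0.043 to 0.041. These values show no shared effect by number, but they cannot exclude that same-numbered libraries were handled together. Pseudocounts moved the log2 EGR to NAB difference to between 3.80 and 4.34. With depth unknown, no counting error can be given for low genes such as Nr4a3 and Egr4.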

Other observations

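The AU-rich pentamer ATTTA, a sequence known from short-lived mRNAs, occurred at least 3 times after the stop codon of the longest GENCODE basic transcript in 7 of the 10 genes, against 37.6% of the 10743 tested genes with an annotated 3′ UTR. Egr3 held 7 copies, Nab1 held 6, Nr4a3 held 5, and Egr2, Nab2, Nr4a1 and Nr4a2 held 3 each, while Egr1 held 2, Srf held 1 and Ier2 held 0. Across all tested genes with a 3′ UTR, 45.5% of those with no ATTTA were called higher, against 27.9% of those with 6 or more. Genes with 6 or more had a median genomic span of 46.2 kb, against 13.4 kb for genes with none, and the part of span was not tested.

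Among tested genes outside the set, those with a promoter CArG box were called as follows: of 124 such genes 35.5% were called higher and 54.0% lower, against 40.6% higher of all 8574 tested genes with a promoter window. Over all 10863 tested genes 46% were called lower. Dusp5 (13.3 kb), Zfp36 (3.47 kb) and Ppif (6.32 kb) had the largest rises among those with a CArG box, by 2.99, 2.94 and 2.32 on the log2 scale. The largest falls were those of Fut8 (238 kb), Selenbp1 (11.7 kb) and Tanc1 (234 kb), with log2 fold changes of -3.72, -2.50 and -1.99. All of these genes were named after their values were seen, and the part of span was not tested. Of 1085 tested genes with GCGNGGGCG in the window 32.4% were called higher, and of 3176 with TGACG 44.2% were.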
